A study of Mus musculus with 12 samples.

Results

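Day 5 was compared with day 3 in the libraries numbered replicate 2 of a time course of RAW264.7 cells, a mouse monocyte/macrophage line of Balb/c origin that forms osteoclasts when given RANKL. The rule took 4 of the 12 libraries of the series: Treatment day 5, Vehicle day 5, Treatment day 3 and Vehicle day 3, 1 library each. Every culture, in both arms, received RANKL. The treatment arm also received culture supernatant of L. reuteri, and the vehicle arm received MEM-alpha medium. The labels number the replicates but do not say whether they were separate cultures. Apart from fits without an arm term, the p-values rest on how far the 2 arms differed in their change between days. That difference may be technical, and no spread between replicates enters it. RAW264.7 is an immortalized line, and all libraries came from this line alone.

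Osteoclasts are multinucleated cells of the monocyte lineage that resorb bone. RANKL binds its receptor RANK on precursors, and signalling through TRAF6, NF-kB, AP-1 and receptors with ITAM adaptors induces NFATc1, the transcription factor that drives the osteoclast programme. The cells then leave the cell cycle, fuse, seal off a patch of bone with a podosome ring, acidify it with a vacuolar proton pump, and digest it with lysosomal proteases such as cathepsin K. The change between a middle and a late day of culture asks how far this programme was carried on.

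The 4 libraries stood apart from the others of the series. Nuclear protein-coding genes took 38.1% to 48.8% of their reads; in the 4 replicate 1 libraries of the same days the share was 85.2% to 87.6%. Mitochondrially encoded genes took 25.7% to 30.6% of the reads, against 3.64% to 5.38% in replicate 1, and the nuclear noncoding RNA Malat1 took 8.15% to 13.97% in replicate 2. Depth was 10724569 reads in Treatment day 5, 8995397 in Vehicle day 5, 8071160 in Treatment day 3 and 8646921 in Vehicle day 3, with 16430 to 17675 genes detected. The share of nuclear protein-coding reads was 48.8% and 41.0% at day 5 (treatment and vehicle), against 47.1% and 38.1% at day 3, so it was higher in the treatment arm on both days and lowest in Vehicle day 3. Its part in the results was not tested.

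Markers of the labelled cell type were present. The 6 macrophage markers summed to 141910 and 78066 normalized counts at day 5 (treatment and vehicle), against 50547 and 20332 at day 3. Most of these sums was Lyz2, with 122800 and 65879 at day 5, against 38123 and 13668 at day 3. The days overlapped for Cd14 and Itgam. The 8 osteoclast markers summed to 17134 and 15183 at day 5, against 5319 and 3128 at day 3. Most markers of other cells were at or near 0. Col1a1 and Bglap, which mark osteoblasts and stromal cells, were at 0 in all 4 libraries, and Sp7 had at most 4.72 normalized counts. Runx2, the only tested member of a longer stromal and osteoblast list, had 30.9 to 66.1. The lymphoid marker Cd79a had 4.24 to 4.74, and the neutrophil genes Mpo and Elane had at most 1.57. Of the dendritic cell markers, Flt3 had at most 1.47, H2-Aa at most 8.48 and Zbtb46 35.3 to 54.5. The MHC class II invariant chain Cd74, which macrophages also express, gave nearly all of that list's summed 2220 and 2519 at day 5, against 1466 and 944 at day 3. In bulk RNA, fewer cells of a type and less RNA per cell cannot be told apart.

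Values below are normalized counts, recovered from the deposited log2 scale. A log2 difference is day 5 minus day 3 on log2(normalized count + 8), averaged over the treatment and the vehicle arm and given with its standard error (SE). On this scale the change of low genes is understated. Genes were called with limma at an adjusted p under 0.05. Of 13492 genes tested, 2850 (21.1%) were called higher and 1233 (9.14%) lower at day 5, together 30.3%. The median gene itself stood 0.24 higher at day 5, by 0.13 in the treatment arm and 0.32 in the vehicle arm. When each library was centred on the median of its nuclear protein-coding genes, 1324 genes (9.81%) were called higher and 2484 (18.4%) lower; all 1324 were also called higher, and all of the 1233 also called lower, under the other scaling. The balance of rises and falls therefore depended on the scaling, and for the change between days most groups below are given under both. The difference between replicates is given by group in the first scaling only.

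The calls also depended on the arm term and on single libraries. With 1 library per arm and day, the 4-library fit left 1 residual degree of freedom, the difference between the arms in their change between days. From these differences limma estimated 1 spread for genes of a given level. Adjusted p-values are therefore very small and are read only as past the threshold. Without a term for the arm, 433 genes were called higher and 263 lower. The fits between days that left out 1 library, here and below, had no arm term either, and 1 day then held 1 arm only. Their calls compare with 433 and 263, and a call lost from the first fit mixes both changes. Leaving out Treatment day 5 left 11 higher and 1 lower, leaving out Vehicle day 5 left 190 and 62, leaving out Treatment day 3 left 2554 and 542, and leaving out Vehicle day 3, the library with the lowest protein-coding share, left 170 and 186. Most of the tested genes named in the text lost their call without Treatment day 5, and most did without Vehicle day 5. Fewer lost it without Vehicle day 3, and fewest without Treatment day 3. A measure that needs no fit is whether both day 5 libraries lay beyond both day 3 libraries: this held upward for 4485 genes (33.2%) and downward for 2651 (19.6%).

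The groups with the clearest movement were lysosomal genes, which rose, and mitotic genes, which fell. Promoters of members of both groups are shown because a short motif was frequent in each. The sequences are the 250 bases before the start site, from RefSeq on GRCm38.p6, for genes with a single listed start, and they run 5′ to 3′ on the gene's strand. For the lysosomal genes, capitals mark CACGTG, a palindrome that is the core of the sites bound by MiT/TFE factors, among others. The 2 with the most matches were Lamp1 (lysosomal membrane protein, chr8:13158911-13159160, plus strand) and Ctsd (cathepsin D, chr7:142387828-142388077, minus strand).
Lamp1: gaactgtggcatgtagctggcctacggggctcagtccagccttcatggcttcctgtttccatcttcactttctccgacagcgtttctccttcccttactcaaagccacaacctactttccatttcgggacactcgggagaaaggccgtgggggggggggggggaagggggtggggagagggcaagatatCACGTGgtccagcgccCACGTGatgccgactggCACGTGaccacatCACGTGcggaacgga
Ctsd: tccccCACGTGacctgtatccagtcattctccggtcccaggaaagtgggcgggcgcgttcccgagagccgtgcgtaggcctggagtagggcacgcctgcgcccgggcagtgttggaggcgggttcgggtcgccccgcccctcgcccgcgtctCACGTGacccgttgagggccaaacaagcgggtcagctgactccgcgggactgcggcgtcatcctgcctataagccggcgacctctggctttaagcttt
For the mitotic genes, capitals mark CCAAT or its reverse complement ATTGG, the core letters of the site bound by NF-Y. The 2 with the most matches were Top2a (topoisomerase II alpha, chr11:99024190-99024439, minus strand) and Hmmr (a spindle-associated protein, chr11:40733438-40733687, minus strand).
Top2a: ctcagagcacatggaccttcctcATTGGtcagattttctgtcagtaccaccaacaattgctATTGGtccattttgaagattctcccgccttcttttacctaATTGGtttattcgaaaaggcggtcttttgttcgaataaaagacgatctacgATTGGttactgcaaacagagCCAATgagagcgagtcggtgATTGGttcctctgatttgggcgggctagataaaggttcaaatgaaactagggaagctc
Hmmr: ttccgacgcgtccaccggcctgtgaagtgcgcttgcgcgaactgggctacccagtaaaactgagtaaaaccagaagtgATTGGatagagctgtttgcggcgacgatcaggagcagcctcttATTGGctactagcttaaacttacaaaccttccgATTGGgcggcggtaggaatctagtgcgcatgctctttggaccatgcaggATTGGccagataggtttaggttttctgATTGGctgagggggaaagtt
Searched on both strands, CACGTG was found in 8 of 22 lysosomal promoters (36.4%) and 1 of 23 mitotic promoters (4.35%), against 8.68% of the 6844 tested protein-coding genes with such a promoter. CCAAT was found in 20 of 23 mitotic promoters (87.0%) and 10 of 22 lysosomal promoters (45.5%), against 37.8% of the 6844. Neither motif contains the other. A match is a description of the letters and not of binding.

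Genes of bone resorption were mostly higher at day 5. Of 22 listed effectors 21 were tested, 16 rose, 1 fell and 4 were not called, with a median log2 difference of 0.83 beside 0.24 for all genes. Centred, 10 rose and 1 fell; without Vehicle day 3, 5 rose and none fell, and without the arm term, 7 rose and none fell. In 17 of the 21 both day 5 libraries were above both day 3 libraries, beside 33.2% of all genes. For this and every list below, calls over all genes were 21.1% higher and 9.14% lower (centred, 9.81% and 18.4%). Among the named genes below, those that are not among the strongest of their list or of the whole table were chosen after their values were seen.

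Ctsk encodes cathepsin K, the main collagen-degrading protease of osteoclasts. It had 7164 and 6680 normalized counts in Treatment day 5 and Vehicle day 5, against 1414 and 581 in Treatment day 3 and Vehicle day 3, which is 2.92 higher on the log2 scale (SE 0.18; limma adjusted p = 5.9e-54). Both day 5 libraries lay far above both day 3 libraries, and the difference was 2.33 in the treatment arm and 3.51 in the vehicle arm. Mmp9, a gelatinase that osteoclasts secrete, had 4764 and 2815 at day 5, against 951 and 369 at day 3, a log2 difference of 2.61 (SE 0.19). Atp6v0d2, the proton pump subunit that is typical of osteoclasts, had 2504 and 2569 at day 5, against 1085 and 850 at day 3, a log2 difference of 1.39 (SE 0.19). Ckb, the brain-type creatine kinase that supplies ATP during resorption, had 1225 and 1486 at day 5, against 600 and 315 at day 3 (log2 difference 1.62, SE 0.20). These 4 rises were also called under the centred scaling and without the arm term. Leaving out each library in turn left Ctsk and Mmp9 called every time, whereas Atp6v0d2 and Ckb were not called without Treatment day 5 or without Vehicle day 5.

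Smaller rises covered the acid and vesicle machinery. Carbonic anhydrase 2 (Car2), which makes the protons, had a log2 difference of 1.02, the chloride-bicarbonate exchanger Slc4a2 one of 0.83, the vesicle GTPase Rab3d one of 1.32 and the late endosome GTPase Rab7 one of 1.03. The proton pump subunit Tcirg1 (0.63), the chloride antiporter Clcn7 (0.51) with its partner Ostm1 (0.78), and the vesicle regulators Plekhm1 (0.77) and Snx10 (0.51) were called in the first scaling but not when centred. Itgb3, the beta chain of the vitronectin receptor, was low: 17.8 and 76.3 normalized counts at day 5, against 0 and 8.82 at day 3. The collagenase Mmp14 was the member that fell, with 135 and 80.5 at day 5, against 220 and 137 at day 3 (log2 difference -0.69).

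Acp5, which encodes the tartrate-resistant acid phosphatase used to stain osteoclasts, did not follow Ctsk. It had 771 and 1231 normalized counts at day 5, against 814 and 675 at day 3, so the days overlapped (log2 difference 0.39, SE 0.20; limma adjusted p = 0.12). The treatment arm differed by -0.08 and the vehicle arm by 0.86. The sodium-proton antiporter Slc9b2 was likewise not called (198 and 172 at day 5, against 172 and 80.8 at day 3). The calcitonin receptor Calcr was below the filter, with 2.37 and 15.5 at day 5, against 1.57 and 0 at day 3.

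**Figure D1:**
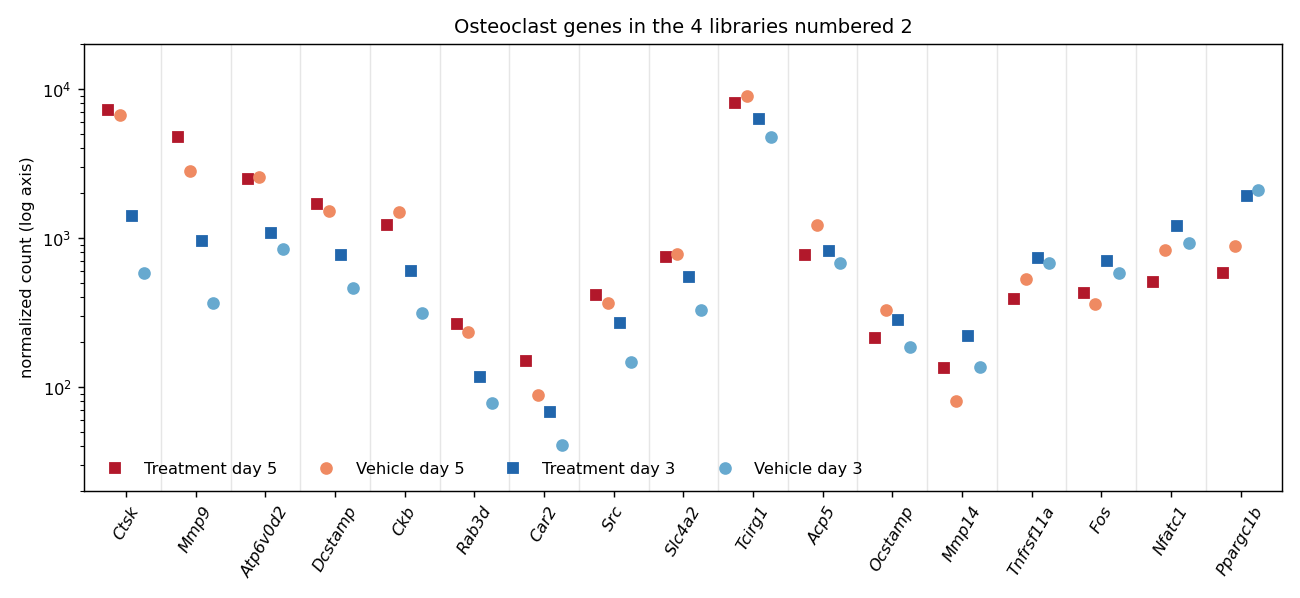
Normalized counts (log axis) of osteoclast genes in the 4 libraries numbered 2, with day 5 left of day 3 for each gene and the treatment arm as squares. Ctsk stood at 7164 and 6680 at day 5, against 1414 and 581 at day 3, whereas the days of Acp5 and Ocstamp overlapped and Nfatc1 and Ppargc1b were lower at day 5.

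Fusion genes were split. Of 15 listed genes 13 were tested, 6 (46.2%, beside 21.1% of all genes) rose, none fell and 7 were not called. The median log2 difference was 0.37. Centred, 5 rose and 1, the unconventional myosin Myo10, fell. Dcstamp, the membrane protein needed for precursor fusion, had 1689 and 1516 normalized counts at day 5, against 765 and 462 at day 3 (log2 difference 1.42, SE 0.20). Its relative Ocstamp had 212 and 329 at day 5, against 282 and 187 at day 3, and was not called (log2 difference 0.20, SE 0.24). The 2 arms of Ocstamp had opposite signs, -0.40 in the treatment arm and 0.79 in the vehicle arm.

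The other fusion genes that rose were the proton pump subunit Atp6v0d2, given above, and 4 genes of cell surface proteins. Sirpa, the receptor for CD47, had 7900 and 5601 normalized counts at day 5, against 2724 and 1385 at day 3 (log2 difference 1.77, SE 0.18). The tetraspanins Cd9 (1.07) and Cd81 (1.11) and the metalloprotease Adam8 (0.61, not called when centred) also rose. The hyaluronan receptor Cd44 (0.37) was not called.

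Genes of RANK signalling and of osteoclast transcription factors were split. Of 29 tested, 7 (24.1%) rose, 5 (17.2%) fell and 17 were not called, beside 21.1% and 9.14% over all genes. Centred, 4 rose and 7 fell, beside 9.81% and 18.4%. The share that rose and the median log2 difference, 0.25, were close to those of all genes. Members that fell included the receptor of RANKL and NFATc1. Tnfrsf11a, which encodes RANK, had 392 and 531 normalized counts at day 5, against 735 and 682 at day 3 (log2 difference -0.62, SE 0.21; limma adjusted p = 0.014). Nfatc1 had 505 and 831 at day 5, against 1198 and 930 at day 3 (log2 difference -0.70, SE 0.20; limma adjusted p = 0.0031). Both day 5 libraries were below both day 3 libraries for each gene, but the Nfatc1 difference was -1.23 in the treatment arm and -0.16 in the vehicle arm. Neither fall was called without the arm term, where the limma adjusted p was 0.25 for Tnfrsf11a and 0.20 for Nfatc1.

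Ppargc1b, the coactivator that supports mitochondrial biogenesis in osteoclasts, fell most in this list: 582 and 877 normalized counts at day 5, against 1902 and 2099 at day 3 (log2 difference -1.47, SE 0.19). The AP-1 subunit Fos (-0.69) and the growth regulator Myc (-0.85) also fell, and Fosl2 (-0.34) and Mitf (-0.43) were called lower when centred but not in the first scaling. Of the 5 genes of the ITAM branch in this list 4 rose. The adaptors Tyrobp and Fcer1g, which carry the co-stimulatory signal, had log2 differences of 1.55 (SE 0.18) and 1.34 (SE 0.18), the kinase Syk one of 1.06 (SE 0.23) and the phospholipase Plcg2 one of 0.86, which was not called when centred. The kinase Btk (0.07) was not called. The other rises were of the AP-1 subunits Junb (0.59) and Jund (0.95) and the transcription factor Tfec (0.87), and of these Jund was also called when centred. The adaptor Traf6 (0.74) and the NF-kB subunits Rela (0.59) and Relb (0.43) were not called.

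Of 12 tested repressors of osteoclast formation, 4 (33.3%) rose and none fell, beside 21.1% and 9.14% over all genes. Centred, 2 rose and 1 fell. Irf8, a macrophage factor that holds back NFATc1, had 609 and 454 normalized counts at day 5, against 258 and 182 at day 3 (log2 difference 1.25, SE 0.23). Nrros, which limits reactive oxygen species, had 820 and 715 at day 5, against 431 and 229 at day 3 (log2 difference 1.26, SE 0.21). Both days were clear of each other for these genes. Id2 (1.01) rose in the first scaling but not when centred.

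Genes of podosomes and the sealing zone, the actin ring that attaches the osteoclast to bone, rose in 11 of 23 tested and fell in none (centred, 9 and 1, with a median of 0.41 in the first scaling). The share that rose was 47.8%, beside 21.1% of all genes. Plaur, the urokinase receptor, had 399 and 97.5 normalized counts at day 5, against 72.4 and 23.5 at day 3 (log2 difference 2.04, SE 0.29). Ptk2b, the adhesion kinase Pyk2, had a log2 difference of 1.36 (SE 0.23), the actin-binding proteins Cap1 and Lasp1 had 1.25 (SE 0.20) and 1.14 (SE 0.19), and the kinase Src had 0.94 (417 and 366 at day 5, against 269 and 147 at day 3). The small GTPases Rac1 (0.92) and Rac2 (1.00) rose as well. Talin 1 (Tln1, -0.28) was called lower when centred but not in the first scaling. Without Vehicle day 3, no member of this list was called in either direction.

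The vacuolar proton pump rose in most subunits. Of 18 tested, 13 rose, none fell and 5 were not called, with a median log2 difference of 0.77 (centred, 9 rose and 1, Atp6v1d, fell). In 16 of the 18 both day 5 libraries were above both day 3 libraries, beside 33.2% of all genes. The share called higher was 72.2%, beside 21.1% of all genes. The membrane subunit Atp6v0a1 had the largest difference: 485 and 513 normalized counts at day 5, against 139 and 110 at day 3 (log2 difference 1.94, SE 0.24). The proteolipid Atp6v0c had 6077 and 4927 at day 5, against 3042 and 2025 at day 3 (log2 difference 1.14, SE 0.18), and the accessory protein Atp6ap1 had 1706 and 1348, against 860 and 586 (log2 difference 1.09, SE 0.19). Without Vehicle day 3, 2 subunits were called higher.

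Lysosomal genes moved as a group. Of 30 tested, 26 (86.7%, beside 21.1% of all genes) rose, none fell and 4 were not called. The median log2 difference was 1.04 (0.78 in the treatment arm and 1.17 in the vehicle arm). Centred, 22 rose and none fell, and all 30 differences were above 0 in the first scaling. Cathepsin B (Ctsb) had 33931 and 25623 normalized counts at day 5, against 10535 and 5183 at day 3 (log2 difference 2.00, SE 0.17). Cathepsin D (Ctsd) had 31177 and 22661, against 10678 and 5734 (1.76, SE 0.17), and cathepsin L (Ctsl) had 4362 and 1451, against 1242 and 381 (1.86, SE 0.19). In each protease both day 5 libraries exceeded both day 3 libraries.

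Rises were not limited to proteases. Prosaposin (Psap, 1.64, SE 0.18) and the glycosidases Gla (1.66) and Hexa (1.17) rose, as did the membrane proteins Lamp1 (1.53), whose promoter is shown above, and Lamp2 (1.37). Lamp1 had 4152 and 2687 normalized counts at day 5, against 1532 and 869 at day 3. The cholesterol transporter Npc1 (0.42) was among the 4 that were not called. Without Vehicle day 3, 8 members were called higher and none lower, and without the arm term 16 and none.

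**Figure D2:**
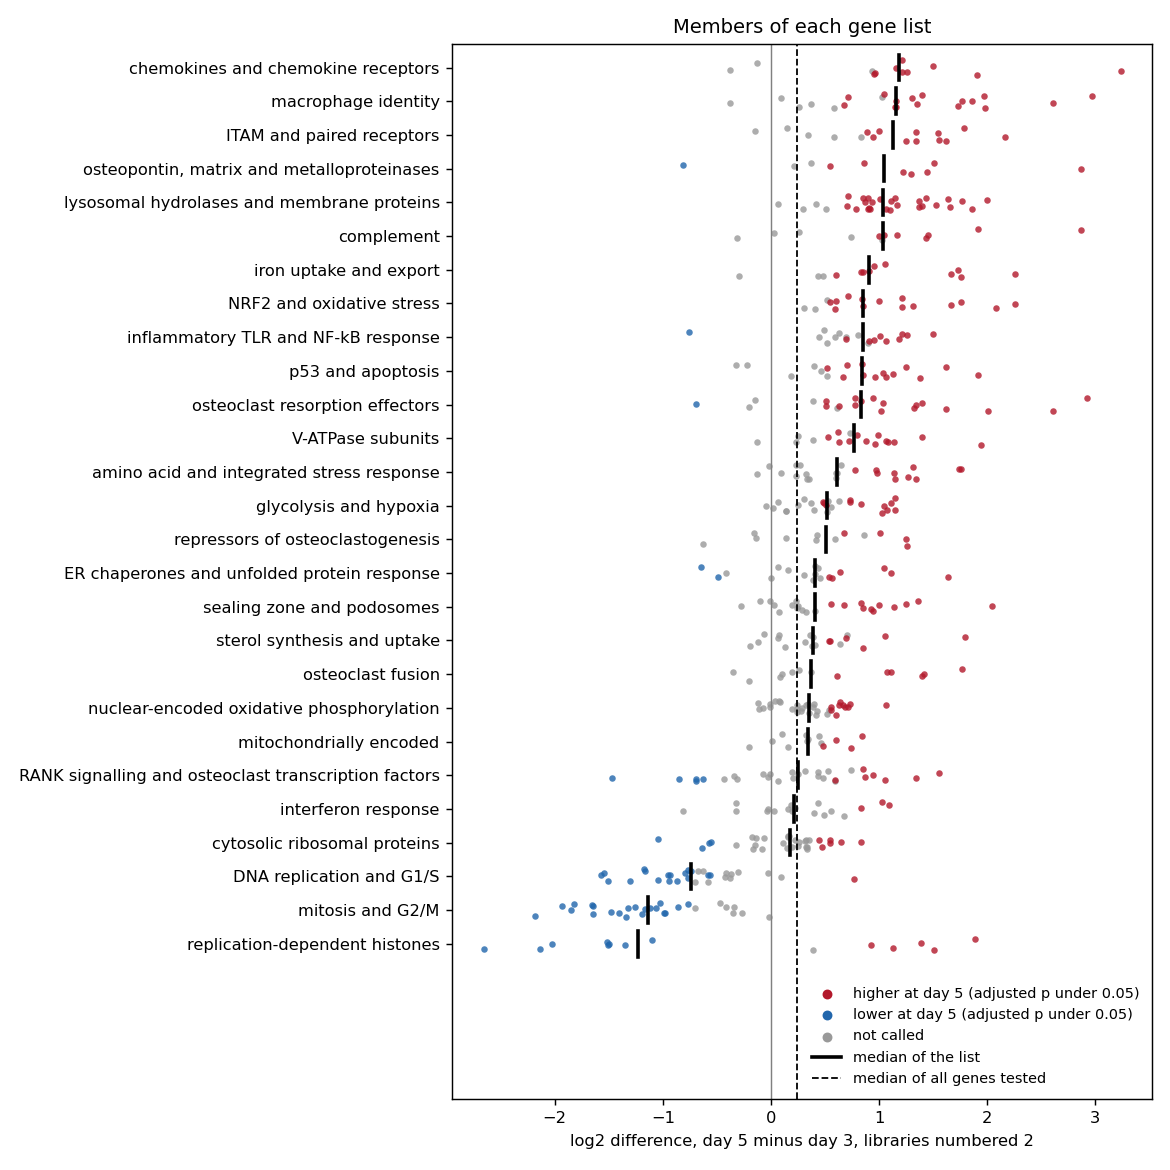
Log2 difference, day 5 minus day 3, of each tested member (points) of the gene lists with at least 10 tested members, with list medians as bars and the median of all genes, 0.24, as a dashed line. Lysosomal genes lay to the right with a median of 1.04, and mitotic genes to the left with a median of -1.14.

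Macrophage genes rose along with those of the osteoclast. Of 22 tested, 16 (72.7%, beside 21.1% of all genes) rose and none fell, with a median log2 difference of 1.16 (centred, 14 and 1). Fcgr3, an activating Fc receptor, had 1522 and 822 normalized counts at day 5, against 224 and 80.8 at day 3 (log2 difference 2.97, SE 0.22). The inhibitory receptor Fcgr2b had 722 and 307, against 110 and 44.1 (2.61, SE 0.25); the 2 receptors are close relatives, and how reads shared by them were counted is not given in the sources used here. Lysozyme (Lyz2) had 122800 and 65879 at day 5, against 38123 and 13668 at day 3 (1.98, SE 0.18). For all 3, no day 3 library reached a day 5 library.

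Others of the list differed less. The perforin-like protein Mpeg1 (1.97, SE 0.18) and the lectin Lgals3 (1.86, SE 0.17) rose, as did Adgre1, which encodes F4/80 (1.31), and Cd14 (1.05). The CSF-1 receptor Csf1r rose by 0.68, a call that was lost when centred. The fractalkine receptor Cx3cr1 (-0.38) was called lower when centred but not in the first scaling. Of 4 tested genes of dendritic cells and MHC class II, 3 rose: Itgax, Cd74 and Cd83.

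ITAM-coupled and paired receptors rose in 11 of 16 tested (68.8%, beside 21.1% of all genes) and fell in none. Centred, 10 rose and none fell, and the median in the first scaling was 1.12. Trem2, a partner of TYROBP that takes part in osteoclast formation, had 4067 and 4572 normalized counts at day 5, against 1718 and 1144 at day 3 (log2 difference 1.62, SE 0.18). Cd200r1, an inhibitory receptor, had 351 and 185, against 69.3 and 36.7 (2.16, SE 0.28). Oscar, the collagen receptor of osteoclasts, was low, with 27.3 and 28.3 at day 5, against 6.30 and 5.88 at day 3, and its call (log2 difference 1.34) was lost when centred.

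Chemokines and their receptors rose in 9 of 12 tested (75%, beside 21.1% of all genes). Centred, 9 rose and 1 fell. Without the arm term, 3 rose and none fell. Ccl6, a myeloid chemokine, had the largest rise of all genes that met the naming rule: 459 and 146 normalized counts at day 5, against 36.2 and 10.3 at day 3 (log2 difference 3.23, SE 0.30). Cxcr4, the receptor of CXCL12, had 154 and 182, against 42.5 and 35.3 (1.91, SE 0.30). Ccl3 (1.26, SE 0.22) and Ccl9 (0.96, SE 0.17), which is secreted by osteoclasts in mice, rose, and Cxcl16 (1.21, SE 0.21) rose with overlapping libraries.

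Further genes with the largest rises were the whey acidic protein Wfdc17 (2.91, SE 0.30), the elastase Mmp12 (2.87, SE 0.28), the integrin chain Itgax (2.86, SE 0.21), the aminopeptidase Anpep (2.59, SE 0.21), the MAP kinase phosphatase Dusp6 (2.46, SE 0.36), the proton channel Hvcn1 (2.40, SE 0.36) and the secretory pathway kinase Fam20c (2.39, SE 0.22). Itgax had 1944 and 1615 normalized counts at day 5, against 299 and 187 at day 3. Mmp12 differed between the arms: it had 1210 and 98.9 at day 5, against 69.3 and 23.5 at day 3, or 3.98 in the treatment arm and 1.76 in the vehicle arm. Osteopontin (Spp1), a matrix protein that binds osteoclast integrins, had 31066 and 10356 at day 5, against 13969 and 3098 at day 3, a log2 difference of 1.45 (SE 0.17). The days overlapped, and the rise was 1.15 in the treatment arm and 1.74 in the vehicle arm. The metalloproteinase inhibitor Timp2 rose by 1.51 (SE 0.21), and the integrin chain Itga4 fell by 0.81 on the log2 scale. In the list of matrix genes 7 of 10 tested (70%, beside 21.1% of all genes) rose and 1 fell (centred, 6 and 1).

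Genes of the antioxidant response and of iron handling rose. In the NRF2 list, 14 of 17 tested rose and none fell (centred, 10 and none; median 0.85), and in the iron list, 10 of 13 rose and none fell (centred, 7 and 1; median 0.90). The shares called higher were 82.4% and 76.9%, beside 21.1% of all genes. Without the arm term, 5 of the NRF2 list and 4 of the iron list rose and none fell. The lists share Fth1, Ftl1 and Hmox1. Ferritin heavy chain (Fth1) had 56585 and 27508 normalized counts at day 5, against 14621 and 4628 at day 3 (log2 difference 2.26, SE 0.18). Ferritin has many near-identical copies in the genome, so its counts are uncertain. Peroxiredoxin 1 (Prdx1) had 17040 and 6706, against 4157 and 1517 (2.09, SE 0.18). Heme oxygenase 1 (Hmox1), which frees iron from heme, had 849 and 356, against 299 and 92.6 (1.67, SE 0.23), and the iron exporter Slc40a1 rose by 1.73 (SE 0.33). The treatment library was the higher at day 5 for each of these genes, and at day 3 for Fth1, Prdx1 and Hmox1. Their rise was larger in the vehicle arm (Fth1, 1.95 in the treatment arm and 2.57 in the vehicle arm). Slc40a1 was lower in the treatment library at day 3 (20.5, against 30.9) and rose more in the treatment arm (2.23, against 1.23).

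Cell cycle genes fell. Of 28 tested genes of mitosis and G2/M, 21 (75%, beside 9.14% of all genes) fell and none rose. The median log2 difference was -1.14, and all 28 differences were below 0. Centred, 24 fell; without the arm term 11 fell, and without Vehicle day 3, 12 fell. Top2a, which untangles DNA before division, had 638 and 1327 normalized counts at day 5, against 4127 and 4264 at day 3 (log2 difference -2.18, SE 0.18). The kinetochore proteins Cenpf and Cenpe fell by 1.94 (SE 0.19) and 1.85 (SE 0.19) on the log2 scale. The proliferation marker Mki67 had 475 and 1002, against 2646 and 2280 (-1.82, SE 0.19). The median fall was larger in the treatment arm, -1.51, than in the vehicle arm, -0.84; that difference was not tested. The 7 that were not called had differences between -0.70 and -0.02.

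DNA replication genes fell in 17 of 29 tested (58.6%, beside 9.14% of all genes) and rose in 1. Centred, 21 fell and none rose, and the median in the first scaling was -0.74. Without the arm term, only 3 fell and none rose. Chaf1a, which loads histones on new DNA, had 79.4 and 120 normalized counts at day 5, against 335 and 281 at day 3 (log2 difference -1.57, SE 0.26). The nucleotide synthesis enzyme Tyms (-1.51, SE 0.26) and the hemimethylation reader Uhrf1 (-1.17, SE 0.27) also fell, and the replicative helicase component Gins2 was the one that rose (0.77). Of the 6 Mcm helicase subunits, Mcm3 (-0.95) and Mcm6 (-0.76) fell and 4 were not called.

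The 12 largest falls in the whole table, by the naming rule, were those of the linker histone Hist1h1e (-2.65, SE 0.33), the checkpoint mediator Clspn (-2.33, SE 0.25), Fam133b (-2.30, SE 0.18), the DNA ligase Lig1 (-2.20, SE 0.20), Top2a, the nuclear pore protein Nup210 (-2.16, SE 0.34), the spindle motor Kif15 (-1.96, SE 0.24), Cenpf, the nucleosome-binding protein Hmgn5 (-1.92, SE 0.19), the recombination factor Rad51ap1 (-1.92, SE 0.27), the cytokinesis kinase Cit (-1.91, SE 0.25) and the replication clamp unloader Atad5 (-1.90, SE 0.25). Lig1 had 358 and 591 normalized counts at day 5, against 2324 and 1975 at day 3. Clspn had 59.3 and 138, against 516 and 469. In both, the treatment library was the lower at day 5.

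Replication-dependent histones split into 2 directions. Of 14 tested, 8 fell and 5 rose (centred, 8 and 4). The linker histones Hist1h1a, Hist1h1b, Hist1h1d and Hist1h1e fell, and Hist1h1e had 10.7 and 22.6 normalized counts at day 5, against 128 and 159 at day 3. The Hist1h2a genes that fell, with Hist1h2ac at 61.6 and 233, against 402 and 319, are near-identical to each other, so reads may be split among them. Hist1h2bc had 107 and 136 at day 5, against 36.2 and 19.1 at day 3 (log2 difference 1.89, SE 0.33), and Hist1h1c had 284 and 251, against 131 and 106 (1.13). Hist2h2aa1, Hist2h3c1 and Hist2h4 were the others that rose, Hist2h4 in the first scaling but not when centred.

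**Figure D3:**
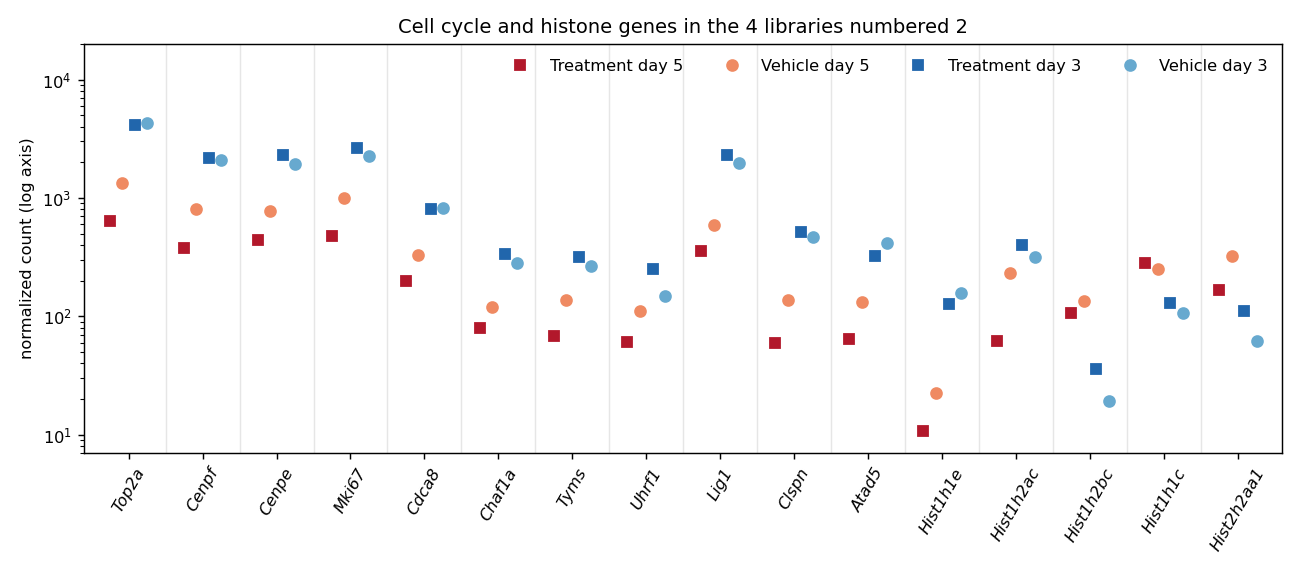
Normalized counts (log axis) of cell cycle and histone genes in the 4 libraries numbered 2, with day 5 left of day 3. Top2a stood at 638 and 1327 at day 5, against 4127 and 4264 at day 3, and the linker histone Hist1h1c went the other way, with 284 and 251, against 131 and 106.

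The 2 arms mostly moved in the same direction with different size. At least 1 log2 unit of change in the same direction in both arms was reached by 645 genes (4.78%) upward and 273 (2.02%) downward. The vehicle arm had the larger median rise for resorption effectors (0.65 in the treatment arm, against 1.03 in the vehicle arm), the proton pump (0.62, against 0.92) and lysosomal genes (0.78, against 1.17). The treatment arm had the deeper median fall for DNA replication genes (-1.07, against -0.45 in the vehicle arm). The median of all genes differed in the same sense, 0.13 in the treatment arm and 0.32 in the vehicle arm, and with 1 library per arm and day no difference between arms was tested.

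**Figure D4:**
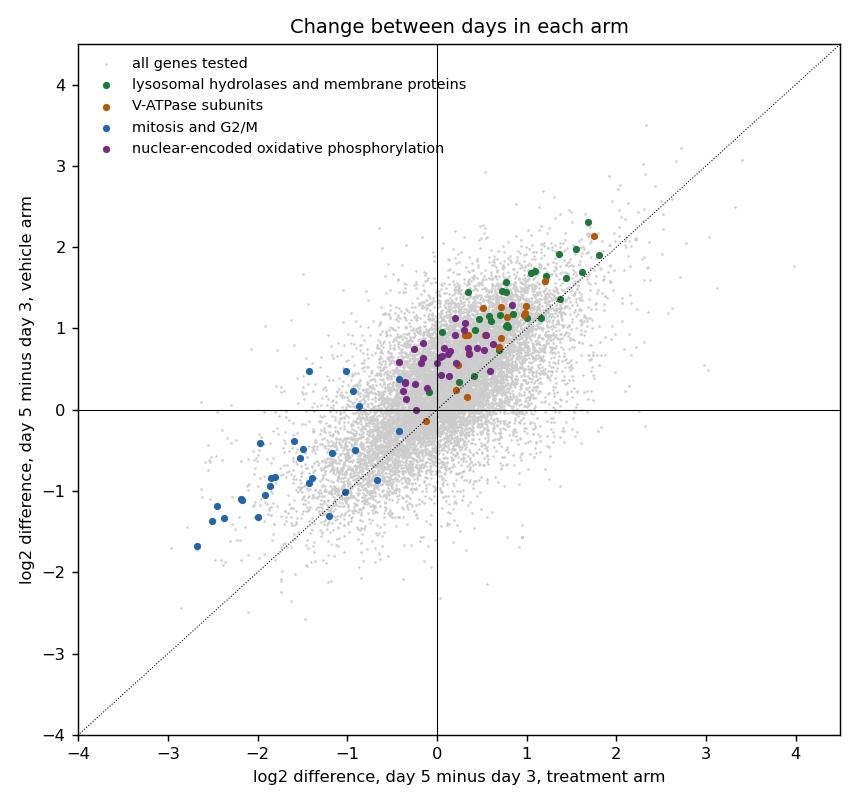
Log2 difference between days in the treatment arm (horizontal) and the vehicle arm (vertical) for every gene tested (grey) and for 4 gene lists (colours); the dotted line marks equal change. Lysosomal and proton pump genes lay mostly in the upper right, and mitotic genes lay left of 0 and mostly below it, with a median of -1.51 in the treatment arm and -0.84 in the vehicle arm.

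Genes of oxidative phosphorylation rose only in part, and this depended on the scaling. Of 33 nuclear-encoded genes tested, 10 (30.3%) rose and none fell, beside 21.1% and 9.14% over all genes. When centred, 1 rose and none fell, beside 9.81% and 18.4%. Cox5a, a subunit of cytochrome oxidase, was the one called under both: 777 and 760 normalized counts at day 5, against 431 and 307 at day 3 (log2 difference 1.06, SE 0.21). Sdha (0.73, SE 0.20), Atp5c1 (0.71, SE 0.20) and Cox4i1 (0.64, SE 0.18) rose in the first scaling but not when centred. Of the 13 mitochondrially encoded genes, 4 rose and none fell (centred, 1 and 1), with mt-Nd4l at 24161 and 30576 normalized counts at day 5, against 14413 and 15886 at day 3 (0.84, SE 0.18). mt-Nd5 (0.74), mt-Co1 (0.60) and mt-Atp8 (0.48) were the others; nuclear copies of mitochondrial genes make these counts uncertain.

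Cytosolic ribosomal protein genes were called in shares near those of all genes: 6 of 32 (18.8%) rose and 4 (12.5%) fell, beside 21.1% and 9.14%. Centred, 1 rose and 6 fell, beside 9.81% and 18.4% over all genes. The median of the ribosomal list was 0.18, below that of all genes. Rpsa had 25373 and 28220 normalized counts at day 5, against 59776 and 50808 at day 3 (log2 difference -1.04, SE 0.18), and Rpl10 rose by 0.83 (SE 0.17). Ribosomal protein genes have many processed copies, so both values are uncertain. The nuclear noncoding RNAs gave 2 rises and 1 fall in 8 tested (centred, 1 and 2): Neat1 (0.77, SE 0.18) and Tug1 (0.85, SE 0.24) rose and Kcnq1ot1 (-0.62, SE 0.17) fell. Malat1 was not called (-0.30, SE 0.24; limma adjusted p = 0.36).

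Lists of stress and inflammatory genes differed in how many members were called, beside 21.1% called higher over all genes (9.81% when centred). In the list of inflammatory response genes, 9 of 18 tested rose and 1 fell (centred, 6 and 1): Ccl4 had 260 and 119 normalized counts at day 5, against 126 and 23.5 at day 3, and the NF-kB inhibitor Nfkbia had 6422 and 2961, against 9224 and 5937 (log2 difference -0.76, SE 0.18). The libraries overlapped between days for both, and the change lay within each arm. Of 18 interferon response genes 3 (16.7%) rose and none fell (centred, 1 and 1), a share below that of all genes: Bst2 (1.09), Stat2 (0.83) and Irgm1 (1.03). Amino acid and integrated stress response genes rose in 10 of 23 tested (centred, 8), with Atf3 at 889 and 421, against 225 and 137 (1.76, SE 0.23), and Ddit3, which encodes CHOP, at 785 and 277, against 255 and 125 (1.35, SE 0.23). Genes of ER chaperones and the unfolded protein response rose in 6 of 18 and fell in 2 (centred, 3 and 3), among them Dnajb9 (1.64, SE 0.34) upward and calnexin, Canx (-0.65, SE 0.18), downward. Without the arm term, 1 inflammatory gene and 1 gene of the amino acid list rose. No gene of the interferon or unfolded protein lists was called in that fit.

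The change between days differed between the replicates. In the 8 libraries of days 3 and 5, the day effect of replicate 2 minus that of replicate 1 was tested for 14883 genes; 1957 (13.1%) were higher and 718 (4.82%) lower in replicate 2 at a limma adjusted p under 0.05. When centred, 830 were higher and 1615 lower, and when no gene was filtered out none was called, although 5463 had an unadjusted p under 0.05. The replicates differ in the composition described above, with 38.1% to 48.8% protein-coding reads in replicate 2, against 85.2% to 87.6% in replicate 1; with each replicate number on 1 side of the difference, replicate and composition cannot be told apart. These calls also depended on which arms were included. Each arm has its own mean in each replicate, so leaving out 1 library also takes its partner of the other day out of the difference. The day effect of that replicate then rests on 1 arm, and the spread on the other replicate alone. The 2 days of an arm are therefore not separate checks, and a lost call mixes both changes. Few calls were left without the vehicle arm of replicate 2 or without either arm of replicate 1. More genes were called without the treatment arm of replicate 2.

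Osteoclast genes were among those that differed between the replicates. Ctsk rose by 2.92 in replicate 2, against -2.73 in replicate 1, a difference of 5.65 (limma adjusted p = 4.9e-05); replicate 1 had 281 and 299 normalized counts at day 5, against 1866 and 2086 at day 3. Acp5 had a day effect of 0.39 in replicate 2, against -4.65 in replicate 1 (difference 5.04; limma adjusted p = 5.9e-05). Atp6v0d2 had 1.39 in replicate 2, against -2.43 in replicate 1 (difference 3.83; limma adjusted p = 4.3e-05). Mmp9 had 2.61 in replicate 2, against -0.55 in replicate 1 (difference 3.16). Of these 4 differences, that of Ctsk was called without each arm of each replicate in turn. Those of Acp5, Atp6v0d2 and Mmp9 were not called without the vehicle arm of replicate 2. As stated above, leaving out either day of an arm takes the whole arm out of the difference.

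Beyond single genes, 14 of the 21 resorption effectors had a higher day effect in replicate 2 and 1 a lower, with list medians of 0.83 in replicate 2, against -0.40 in replicate 1. The proton pump gave 15 of 18 higher (0.77, against -0.25), oxidative phosphorylation 26 of 33 (0.35, against -0.70), and ribosomal proteins 19 of 32 (0.18, against -0.59). These lists moved with a median of all genes of 0.24 in replicate 2, against -0.10 in replicate 1. Over all genes, 13.1% had a higher and 4.82% a lower day effect in replicate 2 in this scaling. When centred, 830 were higher and 1615 lower. The counts of list members for the difference, here and below, are in the first scaling only. How many of them remain when centred was not tested. Nfatc1 fell less in replicate 2, -0.70, against -2.99 in replicate 1 (difference 2.29; limma adjusted p = 0.0034), and Ocstamp had 0.20, against -4.67 (difference 4.87). Tnfrsf11a (difference 0.54; limma adjusted p = 0.17) was not called for the difference.

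In other lists the day effect was lower in replicate 2. Of the mitotic genes 7 of 28 had a lower day effect in replicate 2 and none a higher (median -1.14, against -0.59 in replicate 1), and Top2a had -2.18, against -0.37. Of the unfolded protein response genes 9 of 18 were lower and none higher (0.41, against 0.98). Osteopontin rose less in replicate 2, 1.45, against 3.05 (difference -1.61; limma adjusted p = 0.0058). Among the 8 genes with the smallest p for the difference, in either direction, were also the lectin receptor Clec4a2 (1.33, against -1.53), the coenzyme Q kinase Coq8a (0.14, against -3.52), the interferon-inducible Ifi211 (-1.28, against 1.16) and dystonin, Dst (-0.05, against 2.61). The macrophage list had medians of 1.16 in replicate 2, against 1.20 in replicate 1, but 6 of its 22 genes had a higher and 4 a lower day effect in replicate 2. Cx3cr1 had -0.38 in replicate 2, against 1.24 in replicate 1 (difference -1.62; limma adjusted p = 0.0069), a call that was lost without the vehicle arm of either replicate.

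**Figure D5:**
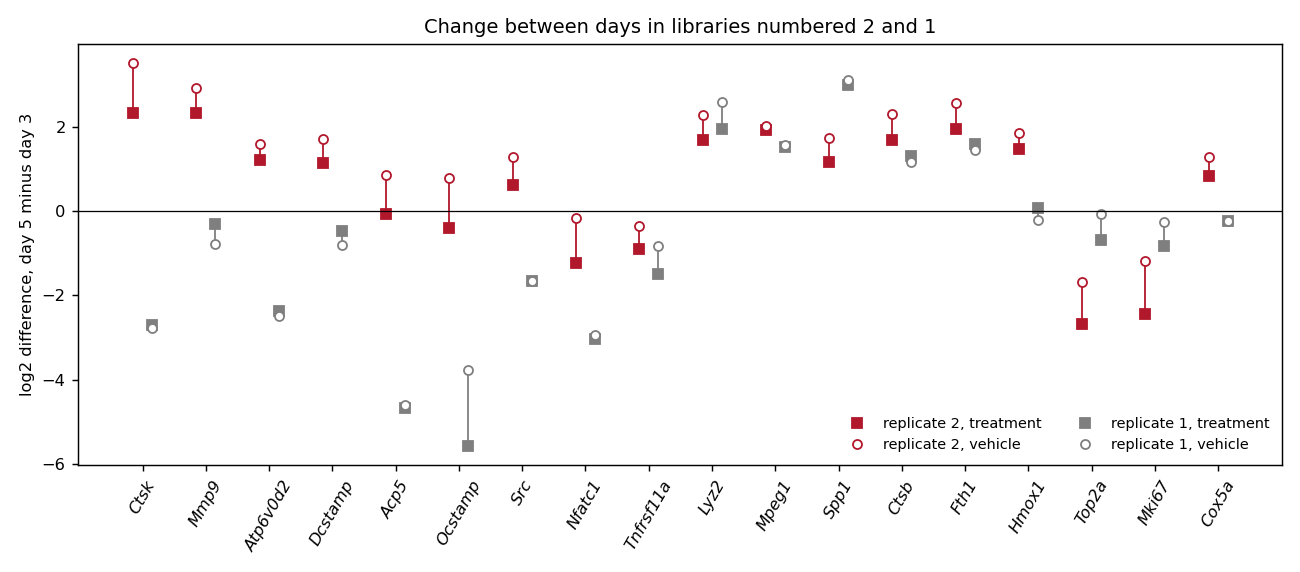
Log2 difference, day 5 minus day 3, in the libraries numbered 2 (red) and 1 (grey), with the treatment arm as filled squares and the vehicle arm as open circles. Ctsk, Atp6v0d2, Acp5 and Nfatc1 were lower at day 5 in replicate 1, whereas Ctsk and Atp6v0d2 were higher in replicate 2; Lyz2 and Mpeg1 were higher in both.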

How the data were processed

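RNA-seq libraries of RAW264.7 cells were made from total RNA with a TruSeq kit, per the labels' protocols. TopHat2, SAMtools, DESeq2 and build mm9 are named without versions in the submitters' processing notes; nothing in the sources used here gives the annotation, the counting or any use of strand. The deposited table holds log2 values. They equal log2(normalized count + 8), as tested on the values: every value gave a whole number of reads within 0.02 reads after division by the value of 1 read, and the normalized counts of each library add up to nearly the same total. Of 24757 rows, 993 repeated an identifier with equal values and were dropped, which left 23764; 23315 were named from the reference annotation, 99 from the file, and 350 had no symbol.

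From these values, genes whose mean normalized count reached 10 at day 5 or day 3 of replicate 2 were fitted with limma 3.58.1 in R 4.3.3 (lmFit, trended eBayes, terms for arm and day, 4 libraries, 1 residual degree of freedom), with Benjamini-Hochberg adjustment over all genes tested. The difference between replicates used the 8 libraries of days 3 and 5 (2 residual degrees of freedom). Arms and gene lists were described without a test. The fit was tested on simulated counts that varied independently between libraries, with no shift between arms in the change between days. That test therefore does not cover the difference between arms on which the p-values rest. The members and lists were chosen with earlier results of these data known. Genes named were the 12 largest rises and 12 largest falls among calls with a mean of at least 100 normalized counts and no overlap between days, 10 osteoclast and control genes, up to 4 members of each list with the smallest p, and the 8 with the smallest p for the difference between replicates, leaving out predicted models, pseudogenes, small RNAs and identifiers with no symbol. A few genes that met this rule are not reported here. Alternatives were other offsets, filters, scalings and models, and leaving out each library. For the comparison of days, the fits that left out a library had no arm term. Low genes are limited by depth: 1 read was worth 1.19 to 1.57 normalized counts in these libraries. Promoters were read from RefSeq (GRCm38.p6).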

Additional observations from a re-analysis of the deposited data

Results flagged for a closer look

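In some results the treatment arm and the vehicle arm of replicate 2 had opposite signs between days. Each arm holds 1 library per day, so the difference between arms was not tested. Acp5 differed by -0.08 in the treatment arm and by 0.86 in the vehicle arm, a difference of -0.94. Ocstamp differed by -0.40 in the treatment arm and 0.79 in the vehicle arm (difference -1.19). Coq8a differed by -0.06 and 0.34 (difference -0.40). The median of nuclear long noncoding RNAs was -0.17 in the treatment arm and 0.02 in the vehicle arm (difference -0.19), and that of cytosolic ribosomal proteins was -0.02 and 0.41 (difference -0.43). The median of all genes was 0.13 in the treatment arm and 0.32 in the vehicle arm.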

How the results depend on the processing

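No paired analysis was possible because each group of the comparison holds only 1 library numbered 2; the arm pairs the days in place of a replicate block. Offsets of 1 and 16, filters, limma-voom on recovered reads and the fit of 8 libraries left the counts of calls between days within 1.5 times. Quantile normalization gave 1837 higher and 1955 lower, centring 1324 and 2484, dropping the arm term 433 and 263 (696 in all), and centring without the arm term, an alternative chosen after seeing the data, 355 higher of 1264. Leaving out 1 library gave 12 to 3096 calls (11 to 2554 higher and 1 to 542 lower). For the difference between replicates, no filter gave 0 calls with limma (5463 at an unadjusted p under 0.05; limma-voom, run with the filter, gave 2744), quantile normalization 977 higher, and centring 830 higher and 1615 lower; leaving out 1 library gave 1 to 3885 calls (1 to 3096 higher and 0 to 794 lower). In these last fits, leaving out 1 library takes out its arm of that replicate, so the 2 days of an arm are not separate checks. The cause was not tested. Of the named genes, Ocstamp turned to -0.051 with quantile normalization and to -0.11 when centred, with or without the arm term, and leaving out 1 library gave -0.11 to 0.51, below 0 without Vehicle day 5 (-0.11) and Vehicle day 3 (-0.089). Coq8a turned to -0.077 with quantile normalization and -0.16 when centred, with or without the arm term, and leaving out 1 library gave -0.17 (Vehicle day 5) to 0.46. Leaving out 1 library gave -0.55 to 0.44 for Dst, above 0 without Vehicle day 5 (0.44) and Treatment day 3 (0.43), -0.64 to 0.047 for Malat1, above 0 without Vehicle day 3, and -0.95 to 0.19 for Cx3cr1, above 0 without Vehicle day 5 (0.19) and Treatment day 3 (0.025). Btk turned to -0.13 with quantile normalization, -0.24 when centred, with or without the arm term, and -0.0082 when scaled to the total on nuclear protein-coding genes, and leaving out 1 library gave -0.031 (Vehicle day 3) to 0.17. None of these 6 was called between days in the first scaling. Centring moved 21 of the 30 list medians by more than the spread between arms. Depth limits genes of few reads, such as Calcr and Itgb3.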

Other observations

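Gene groups outside the osteoclast programme are given beside 21.1% called higher over all genes (9.81% when centred). Of 25 tested genes of glycolysis and hypoxia, 12 rose at day 5 and none fell (centred on the median of nuclear protein-coding genes, 7 and none), with a median log2 difference of 0.52; without Vehicle day 3 none was called, and without the arm term 1 rose. Aldolase A (Aldoa) had 7534 and 4849 normalized counts at day 5 (treatment and vehicle), against 4017 and 2127 at day 3 (log2 difference 1.05, SE 0.18). Phosphoglycerate mutase (Pgam1, 0.83, SE 0.18) and the hypoxia-induced gene Ndrg1 (1.03, SE 0.21) rose within each arm while the days overlapped, as the treatment library was the higher on both days. In only 3 of the 25 were both day 5 libraries above both day 3 libraries, beside 33.2% of all genes. Of 19 sterol genes 6 (31.6%) rose and none fell (centred, 2 and none, a share close to that of all genes; without Vehicle day 3 or without the arm term, 1 rose). Squalene synthase (Fdft1) had 707 and 541 at day 5, against 219 and 137 at day 3 (1.79, SE 0.23), and the sterol sensor partner Insig1 rose by 1.05 (SE 0.23).

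Genes of p53 and apoptosis rose in 13 of 19 tested and fell in none (centred, 9 and 1; median 0.84). Without the arm term, 3 of them rose and none fell. The members with the smallest p included survival genes: Bcl2l1, which encodes BCL-XL, had 521 and 315 normalized counts at day 5, against 216 and 73.5 at day 3 (log2 difference 1.61, SE 0.24), Mcl1 had 8665 and 4527, against 4193 and 2208 (1.04, SE 0.18), and Bcl2a1b rose by 1.92 (SE 0.25), a gene with near-identical copies. The p53 target Ccng1 rose by 1.13 (SE 0.22). Complement genes rose in 7 of 12 tested and fell in none (centred, 7 and 1; median 1.03): Itgb2, the beta chain of complement receptors, had 3372 and 1748, against 1033 and 391 (1.92, SE 0.19), and the receptor C3ar1 rose by 1.44 (SE 0.22).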
